A study of Mus musculus with 6 samples.

Results

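Cyp4f18 and 9 enzymes of leukotriene and prostaglandin synthesis were followed in the RNA of endothelial cells (ECs) sorted from mouse tumors. The 10 genes were Cyp4f18, Pla2g4a, Alox5, Alox5ap, Lta4h, Ltc4s, Ptgs1, Ptgs2, Ptges and Hpgds, and all 10 were found by symbol among the 24346 genes of the expression files. Cyp4f18 was selected on its measured values, as one of the genes with the largest difference between the groups compared here, so its difference is a description and carries no test. The other 9 were picked as its neighbours in the pathway.

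MC38 colon carcinoma cells were grown in wild-type (WT) mice of the C57BL/6 strain and in Apelin-KO mice on the same background, and the tumors were taken on day 19. The comparison asks how tumor ECs differ when the host lacks Apelin, a secreted peptide that signals through the receptor APJ on ECs. The mice were 8 to 10 weeks old, the sample titles of both groups name saline, and CD31+ CD45- cells were sorted before RNA sequencing. The knockout was present in every cell of the host from conception and not in ECs alone, while the tumor cells were the same line in both groups. Each group had 3 samples, and nothing in the labels says whether each came from a separate mouse, so p-values measure the spread between these samples only.

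Eicosanoids are lipid mediators made from arachidonic acid that phospholipases cut from membranes. In the leukotriene branch, 5-lipoxygenase and its partner FLAP make leukotriene A4, which is turned into the leukocyte attractant leukotriene B4 or the vasoactive leukotriene C4, and Cyp4f18 is a cytochrome P450 that hydroxylates leukotriene B4. In the prostaglandin branch, cyclooxygenases make prostaglandin H2, from which terminal synthases make prostaglandin E2 and prostaglandin D2. 5-lipoxygenase is known chiefly from leukocytes, whereas ECs can take up leukotriene A4 made by other cells and complete the last step themselves.

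Values are FPKM, read fragments scaled for transcript length and for the size of the library, and fold changes are differences of log2(FPKM + 1), WT minus Apelin-KO, which understate the change of low genes. A gene was tested with limma where its mean over the samples reached 1 FPKM, and adjusted p-values cover all 10964 genes that passed. Depth, estimated from the FPKM steps of single-transcript genes, ran from 8990000 to 10250000 reads per sample. Apln itself was at 432, 435 and 504 FPKM in WT and at 9.96, 17.5 and 24.3 FPKM in Apelin-KO ECs, a log2 fold change of 4.73 (SE 0.29) with an adjusted p of 0.00747. Apln was the 1 gene of the 10964 called at an adjusted p under 0.05, or 0.00912%. All 6 endothelial markers were detected in every sample, and their sum of 1758 to 2178 FPKM in WT lay below the 2233 to 2420 FPKM of Apelin-KO ECs. Macrophage markers were present in spite of the CD45- gate, with all 8 at a mean of 1 FPKM or more and sums of 257, 446 and 114 FPKM in WT against 43.3, 131 and 124 FPKM in Apelin-KO ECs. In such bulk samples, fewer cells of a type and less RNA per cell cannot be told apart.

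Of the 10 genes, 2 had groups that did not overlap, namely Cyp4f18 with every WT sample higher and Ptgs1 with every WT sample lower. Leaving out 1 sample gave 2 to 7 such genes. The highest number was without WT replicate 3, where 14.2% of all tested genes had WT higher and 15.8% WT lower. Pla2g4a, Alox5ap, Ptges, Ptgs2 and Hpgds had higher means in WT, each with overlapping groups, and Lta4h and Ltc4s had overlapping groups with the smallest log2 fold changes of the tested members. None of the 7 genes that passed the filter was called at an adjusted p under 0.05. At an unadjusted p under 0.05, 2 of the 6 tested genes other than Cyp4f18 were higher in WT, Alox5ap and Ptges, and 0 were lower, where 5.17% of all tested genes were higher and 4.25% lower. The count of 2 was 0 when WT replicate 1, WT replicate 2 or Apelin-KO replicate 1 was left out. The same count was 0 with a pseudocount of 0.01, with no filter and with each gene's own variance. It was 1 with a pseudocount of 0.1, with a filter of 5 FPKM and without Apelin-KO replicate 3. With a trend of variance on level, or without WT replicate 3, it was 3. Groups that did not overlap were found for 6.61% of all tested genes with WT higher and for 7.77% with WT lower. The median log2 fold change of the 6 tested genes other than Cyp4f18 was 0.36, and -0.01 over all tested genes. With Cyp4f18, which was chosen by its difference, the median was 0.71.

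**Figure D1:**
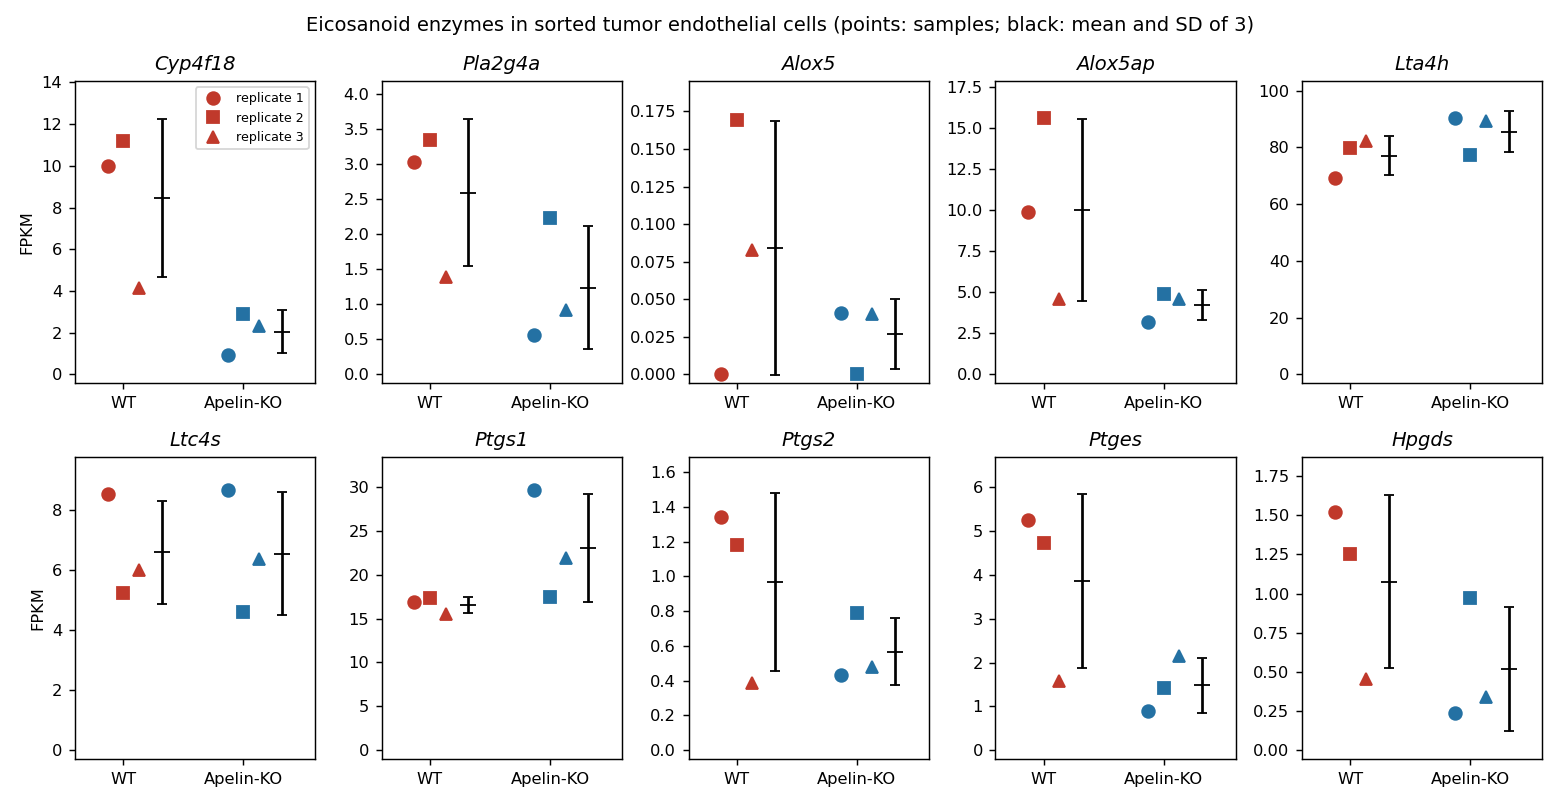
FPKM of each of the 10 genes (y axis, 1 scale per gene) in the WT (red) and Apelin-KO (blue) samples, with the shape giving the replicate number and the black bar the mean and SD of 3 samples. For Cyp4f18, the 3 WT samples lie between 4.14 and 11.2 FPKM, all above the Apelin-KO samples.

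Cyp4f18 lies on chromosome 8 of GRCm38, at 71988482 to 72009626 on the minus strand, with 13 exons in its longest coding transcript of 1702 bases. Its level was 10.02, 11.2 and 4.14 FPKM in WT ECs and 0.923, 2.92 and 2.32 FPKM in Apelin-KO ECs. The groups did not overlap, with WT replicate 3 far below the other WT samples and Apelin-KO replicate 1 the lowest of all. The means were 8.46 ± 3.79 FPKM (SD, n = 3) in WT and 2.05 ± 1.02 FPKM in Apelin-KO ECs, so that the Apelin-KO mean was 24.3% of the WT mean, a ratio of 4.12-fold. On the log2 scale the difference was 1.60 (SE 0.39). These levels correspond to about 153, 152 and 57 reads in WT and 13, 45 and 33 reads in Apelin-KO ECs.

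The 3' part of the Cyp4f18 locus overlaps Zfp961 on the opposite strand, and 2.64% of the 75-base words of the Cyp4f18 transcript also occur in Zfp961. No other gene of the Cyp4f family shares a 75-base word with it. Alox5ap (3.65% of words, with Gm19719), Ptgs1 (2.72%, with Gm43621) and Ltc4s (1.71%, with Gm26542) also share words with a gene on the opposite strand, and the other 6 transcripts share none. The library kit kept strand, but whether strand was used in the quantification is not given in the sources used here. Zfp961 was at 4.80, 4.92 and 3.28 FPKM in WT and 3.89, 3.28 and 2.97 FPKM in Apelin-KO ECs, a log2 fold change of 0.27 (SE 0.16) with a limma adjusted p of 0.617.

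The sequences upstream of Cyp4f18 and Ptgs1 are shown because these are the genes whose groups did not overlap, in opposite directions. Each is the 250 bases before the RefSeq start (GRCm38.p6), 5′ to 3′ on the gene's strand, at chr8:72009627-72009876 on the minus strand and chr2:36230176-36230425 on the plus strand. Capitals mark the motifs CCAAT, here read on the other strand as ATTGG, in Cyp4f18 and GAGGAAGT in Ptgs1.
Cyp4f18: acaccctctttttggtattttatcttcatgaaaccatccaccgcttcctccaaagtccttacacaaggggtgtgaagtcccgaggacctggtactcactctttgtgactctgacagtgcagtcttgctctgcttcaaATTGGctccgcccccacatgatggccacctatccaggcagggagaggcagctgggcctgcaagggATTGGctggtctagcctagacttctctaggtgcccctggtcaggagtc
Ptgs1: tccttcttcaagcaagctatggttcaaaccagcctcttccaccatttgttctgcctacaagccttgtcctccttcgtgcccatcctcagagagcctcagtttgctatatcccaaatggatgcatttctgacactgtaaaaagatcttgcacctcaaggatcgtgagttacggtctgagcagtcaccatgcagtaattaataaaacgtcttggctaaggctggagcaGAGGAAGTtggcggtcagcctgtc

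Of the 10 genes, 9 had an entry among the RefSeq promoters, and 5 motifs, chosen after the values were known, were searched on both strands in the 250 bases before each start. The CCAAT box was found in Cyp4f18, at 113 and 48 bases before the start, and in Lta4h, against 33.8% of all 32851 windows. GAGGAAGT, a form of the motif bound by the myeloid ETS factor PU.1, was present in 2.44% of windows and in 2 of the 9 genes. These were Ptgs1, at 24 bases before the RefSeq start, and Hpgds, at 49 bases before it. In GENCODE, Hpgds starts further upstream, so that this match lies inside the gene as annotated there. The Hpgds match is shown in capitals with 9 flanking bases on each side, and the whole stretch lies at chr6:65144763-65144788 on the minus strand.
Hpgds: ttttaggtgGAGGAAGTggcctctgg
The GC box GGGCGG was found in Alox5, Cyp4f18, Ptges and Ptgs2, against 32.7% of windows. The letters of the TATA box, TATAAA (12.4% of windows), were found in Pla2g4a only, 200 bases before its second start and on the other strand. The E-box CACGTG (6.02% of windows) was found in none of the 9. A match is a run of letters and no evidence of binding.

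Pla2g4a encodes cytosolic phospholipase A2, which releases arachidonic acid and so feeds both branches (chromosome 1, 149829618 to 149961290, minus strand). It was at 3.03, 3.34 and 1.39 FPKM in WT and at 0.561, 2.23 and 0.914 FPKM in Apelin-KO ECs. WT replicates 1 and 2 were above all Apelin-KO samples, but WT replicate 3 fell below Apelin-KO replicate 2. The means of 2.59 ± 1.05 and 1.24 ± 0.880 FPKM (SD, n = 3 each) gave a log2 fold change of 0.71 (SE 0.32), with a limma adjusted p of 0.543.

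Alox5, which encodes 5-lipoxygenase, the enzyme that commits arachidonic acid to leukotrienes, was close to the detection limit (chromosome 6, 116410077 to 116461178, minus strand). It was at 0, 0.169 and 0.0830 FPKM in WT and at 0.0410, 0 and 0.0400 FPKM in Apelin-KO ECs. These values stand for about 0, 4 and 2 reads in WT and 1, 0 and 1 reads in Apelin-KO ECs, and 3 reads would amount to 0.112 to 0.127 FPKM. Only WT replicate 2 lay above that level, and no difference was detectable at this depth.

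Alox5ap encodes FLAP, the membrane protein that presents arachidonic acid to 5-lipoxygenase (chromosome 5, 149264767 to 149288153, plus strand), and was well detected in all samples. It stood at 9.85, 15.6 and 4.57 FPKM in WT and at 3.16, 4.92 and 4.57 FPKM in Apelin-KO ECs. WT replicates 1 and 2 were the highest samples, and WT replicate 3 lay within the Apelin-KO range. The means were 10.01 ± 5.52 and 4.22 ± 0.933 FPKM (SD, n = 3 each), with a log2 fold change of 0.96 (SE 0.38) and a limma adjusted p of 0.516. That fold change was 0.59 without WT replicate 2 and 1.38 without WT replicate 3.

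Lta4h, the hydrolase that makes leukotriene B4, had the highest mean of the 10 genes (chromosome 10, 93453411 to 93484875, plus strand). Its level was 69.4, 79.8 and 82.1 FPKM in WT and 90.3, 77.2 and 89.2 FPKM in Apelin-KO ECs. The groups overlapped and the samples lay close together, with means of 77.1 ± 6.76 and 85.6 ± 7.30 FPKM (SD, n = 3 each) and a log2 fold change of -0.15 (SE 0.12, limma adjusted p = 0.712).

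Ltc4s, the synthase that joins glutathione to leukotriene A4 to give leukotriene C4, was at 8.50, 5.23 and 5.99 FPKM in WT and at 8.66, 4.59 and 6.36 FPKM in Apelin-KO ECs (chromosome 11, 50236461 to 50238616, minus strand). The groups covered nearly the same range, and the highest sample of each was replicate 1. The means of 6.57 ± 1.71 and 6.54 ± 2.04 FPKM (SD, n = 3 each) gave a log2 fold change of 0.02 (SE 0.24), with a limma adjusted p of 0.988. The sign of that difference changed under quantile normalization and when single samples were left out.

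Ptgs1 encodes cyclooxygenase 1, the cyclooxygenase that many tissues express without stimulation (chromosome 2, 36230426 to 36252272, plus strand). It was at 16.9, 17.3 and 15.5 FPKM in WT and at 29.7, 17.5 and 21.9 FPKM in Apelin-KO ECs. Every WT sample was below every Apelin-KO sample, although WT replicate 2 and Apelin-KO replicate 2 were almost level, and Apelin-KO replicate 1 was the highest. The means were 16.6 ± 0.951 and 23.1 ± 6.19 FPKM (SD, n = 3 each), so that the WT mean was 71.9% of the Apelin-KO mean. The log2 fold change of -0.42 (SE 0.19) did not pass the threshold, with a limma adjusted p of 0.529, and was -0.23 without Apelin-KO replicate 1. The summed endothelial markers had the same order of groups, lower in every WT sample. Within Apelin-KO ECs that sum was lowest in replicate 1 (2233 FPKM), the sample in which Ptgs1 was highest. Of the 5 pericyte markers 4 had a lower mean in WT. The sums of all 5 were 160, 129 and 172 FPKM in WT and 177, 172 and 205 FPKM in Apelin-KO ECs, with overlapping groups. These sums were mostly Kcnj8 and Abcc9, with means over all samples of 85.5 and 69.1 FPKM. Pdgfrb, Rgs5 and Cspg4 had means of 6.69, 5.61 and 2.09 FPKM. Rgs5 was lower in every WT sample (log2 fold change -0.98, SE 0.11, limma adjusted p = 0.214). Cspg4 went the other way, with a higher mean in WT and overlapping groups (log2 fold change 0.35, SE 0.20, limma adjusted p = 0.614). The part of endothelial or pericyte RNA in the Ptgs1 difference was not tested.

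Ptgs2, the inducible cyclooxygenase 2, was low in all samples (chromosome 1, 150100031 to 150108227, plus strand). It was at 1.34, 1.18 and 0.385 FPKM in WT and at 0.431, 0.787 and 0.481 FPKM in Apelin-KO ECs. WT replicate 3 was the lowest sample of all and WT replicates 1 and 2 were the highest. Its mean over all samples, 0.767 FPKM, was under the filter, and with no filter the log2 fold change was 0.30 (SE 0.22, limma adjusted p = 0.720).

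Ptges encodes the microsomal synthase that makes prostaglandin E2 and is known to act with cyclooxygenase 2 (chromosome 2, 30889471 to 30929863, minus strand). It was at 5.26, 4.72 and 1.58 FPKM in WT and at 0.895, 1.41 and 2.14 FPKM in Apelin-KO ECs. WT replicates 1 and 2 stood above all others, and WT replicate 3 was below Apelin-KO replicate 3. The means of 3.85 ± 1.99 and 1.48 ± 0.626 FPKM (SD, n = 3 each) gave a log2 fold change of 0.90 (SE 0.36), with a limma adjusted p of 0.520.

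Hpgds, the hematopoietic prostaglandin D synthase, known from mast cells and other cells of hematopoietic origin, was at 1.52, 1.25 and 0.456 FPKM in WT and at 0.240, 0.971 and 0.340 FPKM in Apelin-KO ECs (chromosome 6, 65117293 to 65144908, minus strand). WT replicates 1 and 2 were again the highest samples, and WT replicate 3 lay below Apelin-KO replicate 2. Its mean of 0.796 FPKM was under the filter, and with no filter the log2 fold change was 0.44 (SE 0.27, limma adjusted p = 0.662). Mast cell markers were all under a mean of 1 FPKM, with Mcpt4, Tpsab1 and Ms4a2 at 0 in every sample and sums of 0.177 to 1.36 FPKM in WT and 0.119 to 0.641 FPKM in Apelin-KO ECs.

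**Figure D2:**
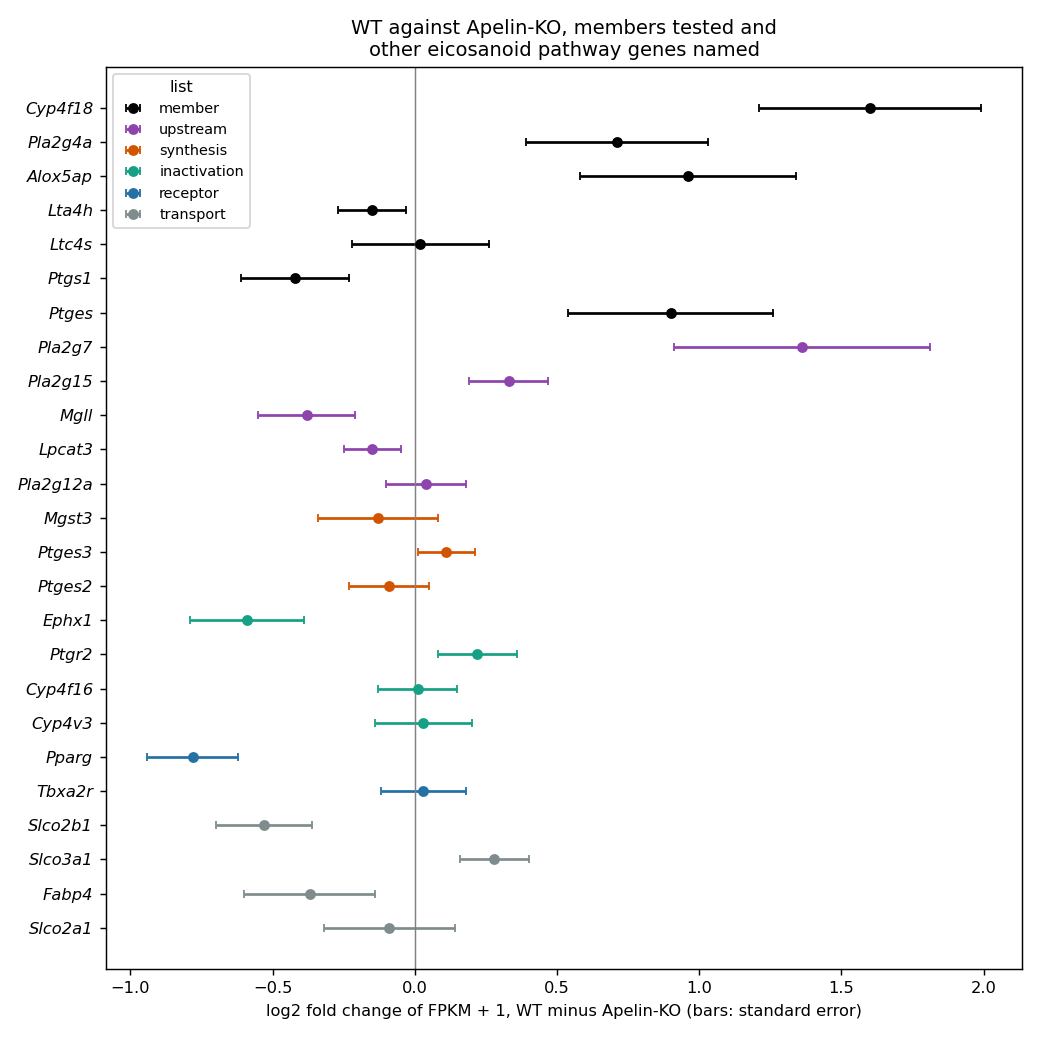
Log2 fold change of FPKM + 1 (x axis, WT minus Apelin-KO) with its limma SE for the 7 tested genes of the set (black, members) and the named genes of the wider pathway, with genes to the right of 0 higher in WT. Cyp4f18, which was chosen by this difference, stands at 1.60 and Ptgs1 at -0.42.

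Per transcript length, the mean levels over all 6 samples fell in the order Lta4h (81.3 FPKM), Ptgs1 (19.8), Alox5ap (7.11), Ltc4s (6.56), Cyp4f18 (5.26), Ptges (2.67), Pla2g4a (1.91), Hpgds (0.796), Ptgs2 (0.767) and Alox5 (0.0555). Lta4h exceeded Ptgs1, Ptgs1 exceeded Alox5ap, Cyp4f18 exceeded Ptges, Pla2g4a exceeded Hpgds and Ptgs2 exceeded Alox5 in 6 of 6 samples. Ptges was above Pla2g4a in 5 of 6. Alox5ap and Ltc4s (3 of 6), Ltc4s and Cyp4f18 (4 of 6), and Hpgds and Ptgs2 (4 of 6) changed places between samples and cannot be put in order. Among these 10 genes, Lta4h had the highest mean and Alox5, which acts before it, the lowest. In the prostaglandin branch, Ptgs1 exceeded Ptgs2 in every sample, with the lowest Ptgs1 value at 15.5 FPKM and the highest Ptgs2 value at 1.34 FPKM.

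**Figure D3:**
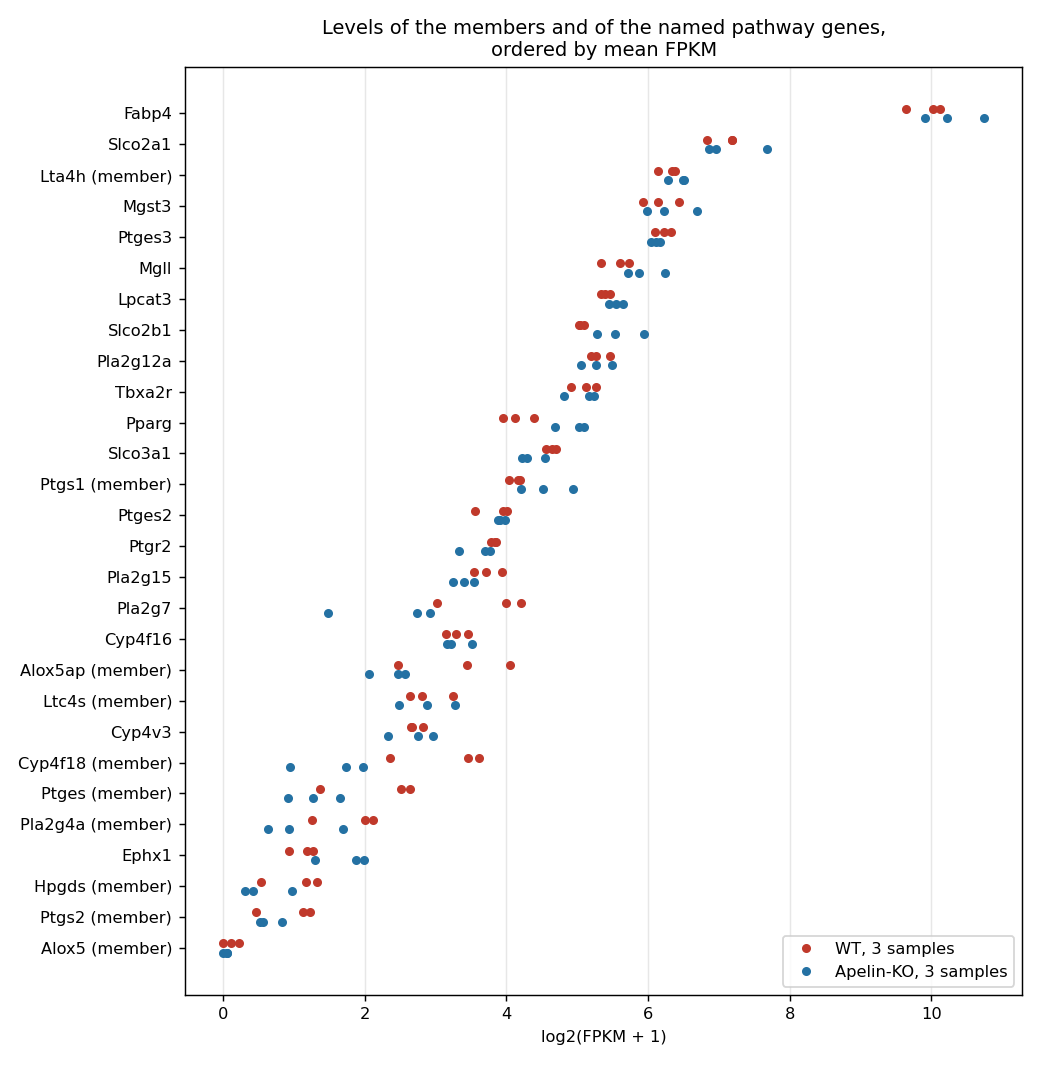
Level as log2(FPKM + 1) (x axis) of the 10 genes, marked as members, and of the named genes of the wider pathway, 1 point per sample in WT (red) and Apelin-KO (blue) ECs, ordered by the mean FPKM over all 6 samples. Among the members, Lta4h has the highest mean at 81.3 FPKM and Alox5 the lowest at 0.0555 FPKM.

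Across the 6 samples the genes followed a few orders. Pla2g4a and Alox5ap had the same order from highest to lowest, which was WT replicates 2 and 1, Apelin-KO replicate 2, WT replicate 3, and Apelin-KO replicates 3 and 1. Hpgds differed from it in having WT replicate 1 first, and Ptges in having WT replicate 1 first and Apelin-KO replicate 3 next after WT replicate 2. Cyp4f18 kept WT replicates 2, 1 and 3 first and then Apelin-KO replicates 2, 3 and 1. Ptgs2 had WT replicate 3 lowest, whereas Lta4h, Ltc4s and Ptgs1 had Apelin-KO replicate 1 highest. The summed macrophage markers and the summed leukocyte markers both ran WT replicates 2 and 1, Apelin-KO replicates 2 and 3, WT replicate 3 and Apelin-KO replicate 1. The sums for the leukocyte markers were 120, 180 and 63.8 FPKM in WT and 38.2, 72.5 and 67.6 FPKM in Apelin-KO ECs, so both lists had overlapping groups with all of their markers (8 of 8 and 5 of 5) at a higher mean in WT. The fibroblast markers moved with these samples too, with 5 of 5 at a higher mean in WT and sums of 219, 236 and 137 FPKM in WT and 92.5, 120 and 141 FPKM in Apelin-KO ECs. Their order, WT replicates 2 and 1, Apelin-KO replicate 3, WT replicate 3, and Apelin-KO replicates 2 and 1, was that of Ptges apart from the first places, and the groups overlapped. The tumor epithelium markers, all 5 under a mean of 1 FPKM, had the sample order of Cyp4f18, with sums of 0.555, 0.780 and 0.379 FPKM in WT and 0.05, 0.226 and 0.200 FPKM in Apelin-KO ECs. The groups of these sums did not overlap and 5 of 5 had a higher mean in WT, but each marker alone had overlapping groups. Krt8, Krt18 and Krt19 were at 0 in every Apelin-KO sample and in some WT samples too. These were WT replicate 1 for Krt8, WT replicate 2 for Krt18, and WT replicates 1 and 3 for Krt19. The part that leukocyte, fibroblast or epithelial RNA has in the levels of these enzymes was not tested.

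**Figure D4:**
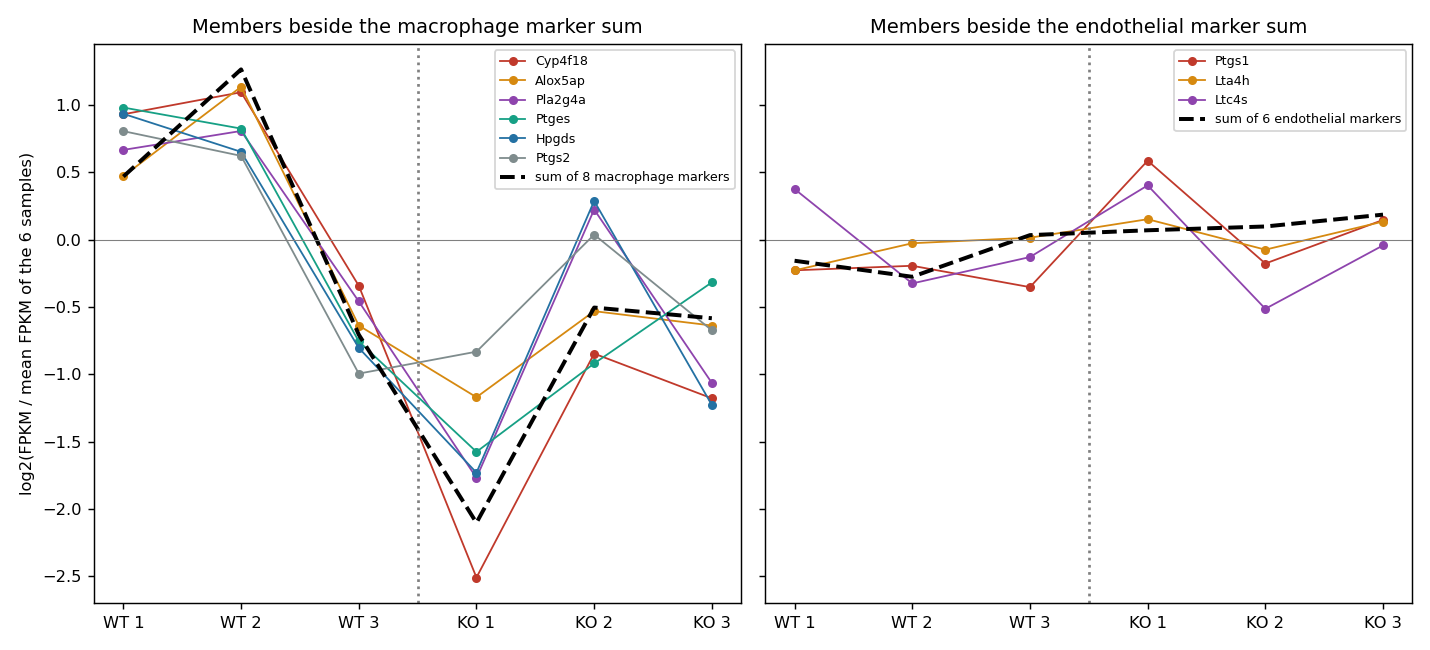
Log2 of the FPKM in each sample (x axis, KO for Apelin-KO) over the mean of the 6 samples, for 6 genes beside the summed macrophage markers (left, dashed) and for Ptgs1, Lta4h and Ltc4s beside the summed endothelial markers (right, dashed). WT replicates 1 and 2 are the highest samples for the macrophage markers (257 and 446 FPKM) and for Cyp4f18, Pla2g4a, Alox5ap, Ptges, Ptgs2 and Hpgds.

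Cyp4f18 was also set against the marker sums, a choice made after the values were seen. Per 100 FPKM of summed macrophage markers, Cyp4f18 was at 3.89, 2.52 and 3.64 FPKM in WT and at 2.13, 2.22 and 1.88 FPKM in Apelin-KO ECs. Per 100 FPKM of summed leukocyte markers it was at 8.33, 6.24 and 6.48 FPKM in WT and at 2.42, 4.02 and 3.43 FPKM in Apelin-KO ECs. These ratios use the values by which Cyp4f18 was chosen, so that its higher ratios in WT are a description only and do not set it apart from the other genes. Their means were 3.35 ± 0.733 against 2.07 ± 0.178 (SD, n = 3 each) for the macrophage ratio and 7.01 ± 1.14 against 3.29 ± 0.812 for the leukocyte ratio. For Alox5ap, the macrophage ratio was 3.83, 3.50 and 4.03 in WT and 7.29, 3.75 and 3.69 in Apelin-KO ECs, with overlapping groups. The Ptges ratio overlapped between groups as well. Neutrophil markers, which mark the cells in which Cyp4f18 and leukotriene B4 are best known, summed to 1.06 to 2.44 FPKM in WT and 1.12 to 3.37 FPKM in Apelin-KO ECs, with Cxcr2 and Ngp at 0 in every sample. Platelet markers, of cells rich in cyclooxygenase 1, summed to 8.47 to 10.4 FPKM in WT and 6.25 to 8.80 FPKM in Apelin-KO ECs, with overlapping groups. Of the 5 platelet markers, Pf4 had the higher mean in WT (6.77 against 5.15 FPKM) and Itga2b in Apelin-KO ECs (1.24 against 1.35 FPKM), and the others were under 1 FPKM on average. The part of platelet RNA in the Ptgs1 levels was not tested.

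Among the genes with the profile most like that of Cyp4f18 over the 6 samples, by Pearson correlation of log2(FPKM + 1), were Runx1 (r = 0.997), Cyp51 (0.997), Hvcn1 (0.996) and Igf2bp2 (0.993). These correlations are descriptions, since the samples share the group difference by which Cyp4f18 was chosen, and 139 of 10963 genes had an r above 0.95. After the group mean was subtracted, the closest were Ptp4a1 (r = 0.999), Scd1 (0.998), Dse (0.997), Polr3g (0.997) and Cmtr2 (0.996), and 158 genes were above 0.95. Within the set, r with Cyp4f18 was 0.941 for Alox5ap, 0.929 for Ptges and 0.919 for Pla2g4a, and these ranked 181, 242 and 293 among all genes. It was -0.179 for Ltc4s, -0.754 for Ptgs1 and -0.762 for Lta4h. After the group mean was subtracted, r was 0.913 for Alox5ap and for Pla2g4a, 0.886 for Ptges, -0.390 for Ltc4s, -0.426 for Ptgs1 and -0.619 for Lta4h.

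The wider pathway was listed as 101 further genes, of which 27 were at 0 in every sample and 44 passed the filter. None of the 44 was called at an adjusted p under 0.05, and the lowest limma adjusted p was 0.501. At an unadjusted p under 0.05, 3 were higher in WT (5.17% of all tested genes) and 3 lower (4.25%). Groups did not overlap for 4 with WT higher (6.61% of all tested genes) and for 4 with WT lower (7.77%), so these counts lay near the background, and the median log2 fold change was 0.03.

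Among the 26 genes that act upstream, on phospholipids and free arachidonic acid, 11 were tested, and 2 were higher in WT at an unadjusted p under 0.05, against 5.17% of all tested genes. Pla2g7, the lipoprotein-associated phospholipase that cleaves platelet-activating factor, was at 17.5, 15.0 and 7.11 FPKM in WT and at 1.80, 5.67 and 6.59 FPKM in Apelin-KO ECs. All WT samples were above all Apelin-KO samples, WT replicate 3 only just, and the log2 fold change was 1.36 (SE 0.45, limma adjusted p = 0.501). Like Cyp4f18, it had WT replicate 3 lowest in WT and Apelin-KO replicate 1 lowest of all, and its ratio to the summed macrophage markers overlapped between groups. Pla2g15, a lysosomal phospholipase, had a log2 fold change of 0.33 (SE 0.14, adjusted p = 0.525). The most abundant upstream genes were Mgll, a lipase for monoacylglycerols (-0.38, SE 0.17, adjusted p = 0.536), Lpcat3, which puts arachidonic acid back into phospholipids (-0.15, SE 0.10, adjusted p = 0.664), and the secreted phospholipase Pla2g12a (0.04, SE 0.14, adjusted p = 0.957).

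Of the 20 other synthesis genes, 10 were tested and none had an unadjusted p under 0.05. The most abundant were Mgst3, a membrane glutathione transferase (log2 fold change -0.13, SE 0.21, limma adjusted p = 0.870), Ptges3, the cytosolic prostaglandin E synthase also known as a chaperone partner (0.11, SE 0.10, adjusted p = 0.756), and Ptges2, another prostaglandin E synthase (-0.09, SE 0.14, adjusted p = 0.873). Ptges, of the set, was thus the 1 of 3 prostaglandin E synthases with a p under that level before adjustment. A difference between the 3 was not tested.

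Of the 27 genes of inactivation, 9 were tested. Ephx1, the microsomal epoxide hydrolase, was at 1.28, 0.909 and 1.41 FPKM in WT and at 2.69, 1.46 and 2.96 FPKM in Apelin-KO ECs, lower in every WT sample, with a log2 fold change of -0.59 (SE 0.20, limma adjusted p = 0.503). Cyp4f16, a relative of Cyp4f18, was at 8.79, 7.89 and 10.02 FPKM in WT and at 10.4, 8.30 and 7.94 FPKM in Apelin-KO ECs. Its groups overlapped, with a log2 fold change of 0.01 (SE 0.14, adjusted p = 0.994). Cyp4f13, a further relative, was at 1.95, 3.08 and 1.66 FPKM in WT and at 1.83, 3.61 and 2.59 FPKM in Apelin-KO ECs, and Cyp4f14, Cyp4f15, Cyp4f37, Cyp4f39 and Cyp4f40 were at 0 in every sample. The other most abundant genes were Cyp4v3, a fatty acid hydroxylase (log2 fold change 0.03, SE 0.17, adjusted p = 0.971), and Ptgr2, a reductase of prostaglandin metabolites, at 12.8, 13.3 and 13.4 FPKM in WT and 12.04, 12.6 and 9.04 FPKM in Apelin-KO ECs, higher in every WT sample (0.22, SE 0.14, adjusted p = 0.639).

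Of the 20 receptor genes, 6 were tested. Pparg, a nuclear receptor that binds fatty acids and their derivatives, was at 16.4, 14.5 and 19.98 FPKM in WT and at 31.7, 24.8 and 33.2 FPKM in Apelin-KO ECs. Every WT sample was lower, and the log2 fold change of -0.78 (SE 0.16) had a limma adjusted p of 0.501. Tbxa2r, the thromboxane receptor, was at 29.1, 33.9 and 37.5 FPKM in WT and 34.8, 36.6 and 27.1 FPKM in Apelin-KO ECs (log2 fold change 0.03, SE 0.15, adjusted p = 0.967). The leukotriene B4 receptor Ltb4r1 was at 0.0830, 0.280 and 0 FPKM in WT and at 0.627, 0 and 0 FPKM in Apelin-KO ECs.

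All 8 transport and binding genes were tested. Slco2b1, an organic anion carrier, was at 31.9, 31.6 and 33.3 FPKM in WT and at 45.5, 38.0 and 60.4 FPKM in Apelin-KO ECs, lower in every WT sample (log2 fold change -0.53, SE 0.17, limma adjusted p = 0.501). Slco3a1, a carrier of the same family, was higher in every WT sample, at 22.6, 23.9 and 24.9 FPKM against 18.5, 22.3 and 17.7 FPKM (0.28, SE 0.12, adjusted p = 0.525). These 2 carriers thus lay on opposite sides of 0, neither past the adjusted threshold. The most abundant were the fatty acid binding protein Fabp4, with a log2 fold change of -0.37 (SE 0.23, adjusted p = 0.646), and the prostaglandin transporter Slco2a1, with -0.09 (SE 0.23, adjusted p = 0.924).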

How the data were processed

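RNA from CD31+ CD45- cells of MC38 tumors was sequenced in 3 WT and 3 Apelin-KO samples. The authors deposited 1 FPKM value per gene and sample, made after a stranded mRNA library of 75-base reads. Per the labels' processing notes, the tools were bcl2fastq 2.17.1.14, TopHat2 2.1.1, Bowtie2 2.2.4, SAMtools 1.0 and Cufflinks 2.2.1 on mm10, and the study's methods name other versions of some of them. The gene annotation and strand setting are not given in the sources used here. No read counts were used here. Depth was estimated from the FPKM steps of 3742 single-transcript genes, assuming 200-base fragments, after the method was tested on simulated data. In each sample 68.6% to 71.5% of low values fell within 0.1 of a whole read, against 20.0% by chance, so no count test was run.

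Genes that reached a mean of 1 FPKM over the 6 samples were fitted with limma 3.58.1 (R 4.3.3) on log2(FPKM + 1), a model of the 2 groups without covariates, with Benjamini-Hochberg adjustment over 10964 genes. The fit was tested on simulated data. An exact permutation test of 3 against 3 samples cannot go below a p of 0.1 and was not used. Positions and shared 75-base words came from GENCODE M21 (GRCm38), and upstream sequences from RefSeq (GRCm38.p6), in Python 3.11.15. The members, the pathway and marker lists and the tests were chosen with earlier results of these data known. Genes named were the members, pathway genes with an unadjusted p under 0.05, the 3 most abundant genes of each pathway list, the 5 genes most like Cyp4f18 by correlation (also after subtracting group means), Apln and markers. Some genes that this rule names are not reported here. Other genes were named after their values were seen. Alternatives covered pseudocount, filter, scaling, variance model, replicate block and leaving out each sample.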

Additional observations from a re-analysis of the deposited data

How the results depend on the processing

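Under 16 alternatives, 10 of processing and 6 that left out 1 sample each, none of the tested members and none of the other pathway genes was called at an adjusted p under 0.05. The lowest adjusted p of a tested member other than Cyp4f18 was 0.115, for Ptges. The number of members whose groups did not overlap was 2, also under the processing alternatives that could change it. These were rescaled FPKM, counted over all 10 members, and quantile normalization, counted over the 7 tested members only. The number over all 10 ranged from 2 to 7 when 1 sample was left out. It was 7 of 10 without WT replicate 3 and 6 of 10 without Apelin-KO replicate 2. Of the 6 tested members other than Cyp4f18, these were 3 with WT higher (14.2% of all tested genes) and 1 lower (15.8%) in the former case, and 2 higher (12.6%) and 2 lower (14.9%) in the latter. The cause was not tested. The log2 fold changes ranged over the alternatives from 0.48 (without Apelin-KO replicate 1) to 1.20 (pseudocount of 0.01) for Pla2g4a, 0.59 (without WT replicate 2) to 1.38 (without WT replicate 3) for Alox5ap, 0.66 to 1.30 for Ptges, -0.22 to -0.08 for Lta4h and -0.60 (without Apelin-KO replicate 2) to -0.23 (without Apelin-KO replicate 1) for Ptgs1, with no change of sign. Cyp4f18 ranged from 1.29 without Apelin-KO replicate 1 to 2.07 with a pseudocount of 0.01. Ltc4s turned to -0.01 under quantile normalization and ranged from -0.18 to 0.22 when 1 sample was left out. The number of tested members other than Cyp4f18 with an unadjusted p under 0.05 was 2 and ranged from 0 to 3. The number of all genes at that level was 1033 and ranged from 536 (without WT replicate 2) to 1452 (no filter), and the number called at an adjusted p under 0.05 from 0 to 3. Over all genes, the scaling alternatives moved the median log2 fold change to between -0.02 and 0.03.

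Replicate numbers were shared between groups, and same-numbered samples had deviations that correlated at -0.139, 0.207 and -0.0186. Samples with different numbers ranged from -0.195 to 0.212. With 3 samples per group these values cannot decide whether the numbers pair the samples. With the replicate block, 0 members were called, the log2 fold change of Alox5ap was 0.96, and 893 genes had an unadjusted p under 0.05, against 1033 without it. Alox5, Ptgs2 and Hpgds were under the filter, and at 8990000 to 10250000 estimated reads per sample the few reads of Alox5 set no direction.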

Other observations

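Some other genes of the pathway, named after their values were seen, had WT replicates 1 and 2 as their highest samples. How common this was among all tested genes was not tested. Dpep2, a dipeptidase that acts on leukotriene D4, was at 2.21, 2.12 and 0.181 FPKM in WT and at 0.355, 0.971 and 0.263 FPKM in Apelin-KO ECs, with overlapping groups (limma adjusted p = 0.662). Ptger4, a prostaglandin E2 receptor, was at 1.49, 1.95 and 0.461 FPKM in WT and at 0.104, 0.652 and 0.404 FPKM in Apelin-KO ECs, and lay under the filter. Tbxas1, thromboxane synthase, was at 3.65, 4.55 and 0.857 FPKM in WT and at 1.56, 3.50 and 1.25 FPKM in Apelin-KO ECs (adjusted p = 0.860). Cmklr1, the receptor of chemerin and of a lipid mediator, did not follow that order, at 6.46, 5.78 and 6.25 FPKM in WT and 5.67, 5.25 and 2.87 FPKM in Apelin-KO ECs. Its groups did not overlap, and the adjusted p was 0.592.

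Akr1b3, an aldose reductase that can act on prostaglandins, was at 3.88, 10.6 and 6.46 FPKM in WT and at 9.65 FPKM in Apelin-KO replicate 1, and was listed at 0 in Apelin-KO replicates 2 and 3. Its groups overlapped, with a log2 fold change of 1.77 (SE 0.90, limma adjusted p = 0.583). Mgst2, which can make leukotriene C4, was at 0.771 and 0.579 FPKM in WT replicates 1 and 2 and at 1.78 FPKM in Apelin-KO replicate 2, and was listed at 0 in the other samples.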
